A study of Mus musculus with 8 samples.

Results

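The genes described here are 7 of the 46625 gene names in the deposited count table: the retinoic acid receptors RARA and RARG, the retinoid X receptors RXRA and RXRB, their partner receptors NR1H2 (liver X receptor beta) and VDR (the vitamin D receptor), and the corepressor NCOR1. They were selected on measured values of the comparison between hosts: RARA was among the 27 of 14607 tested genes (0.185%) that DESeq2 called with the batch as a term, and the other 6 were taken for their place beside it. The values of these genes between hosts are therefore a description, with no test. All 7 names were found in the table and all 7 passed the filter on low counts, VDR through the libraries of batches 1 to 3. The cells were 8F10 T cells, which carry a T cell receptor for an insulin peptide. They had developed from bone marrow of 8F10 donors that are TCR alpha chain-deficient, after removal of mature T and B cells (CD45.2 cells), in hosts irradiated non-lethally (CD45.1), and were sorted from inguinal lymph nodes 6 weeks later. Native insulin is made in the NOD hosts; the B16A hosts, whose strain is likewise labelled NOD/ShiLtJ, make an insulin with a changed B chain in its place. There were 4 libraries of each host, numbered 1 to 4, and the labels give each number as a batch with 1 library of each host. Ages, sex, and the number of animals behind a library are not given in the labels, so the spread between libraries may be partly technical.

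Retinoic acid, made from vitamin A by cells of lymphoid tissue and gut, enters T cells and binds the receptors of the RAR family. These sit on DNA as pairs with an RXR, at repeats of a hexamer close to AGGTCA, and RXR also pairs with liver X receptors, which sense oxysterols, with the vitamin D receptor and with others. Without ligand, RAR pairs hold corepressors such as NCOR1, which bring the histone deacetylase HDAC3 and keep target genes low; ligand exchanges them for coactivators. In T cells, retinoic acid is known for inducing the gut homing molecules CCR9 and the alpha 4 beta 7 integrin.

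Total counts ran from 4896593 to 6137666 in batches 1 to 3 and were 28301805 and 28094237 in batch 4. The batch 4 libraries detected 19751 and 20723 genes, against 29729 to 33175 in the others, and they stand apart from the rest in most results below, which are therefore given by batch. Levels are given as CPM, counts scaled to a common library size with trimmed mean (TMM) factors. The 8 CD4 T cell markers checked were all present, with a summed level of 5157 to 15559 CPM in NOD and 4555 to 11838 CPM in B16A hosts. The 6 B cell markers summed to 2.02 to 20.9 and 1.72 to 11.1 CPM, and the 8 macrophage and dendritic cell markers to 4.48 to 58.7 and 4.53 to 38.5 CPM. The 6 CD8 T and NK cell markers summed to 72.0 to 225 and 79.5 to 187 CPM, mostly from CD8B1, while CD8A lay between 0 and 3.56 CPM. The 6 stromal and endothelial markers summed to 285 to 372 and 270.1 to 411 CPM, mostly from PECAM1. Of these PDPN was at 0 in all 8 libraries and the other 5 were detected. The stromal collagen genes COL1A1 and COL3A1 lay between 1.13 and 10.7 CPM and between 0.0448 and 5.80 CPM.

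RARA is expressed from several start sites, and its gene is itself known to respond to retinoic acid from some of them. The RefSeq promoter table matched all 7 genes, with 14 windows, here cut to the 250 bases before each start (GRCm38.p6, the assembly that mm10 denotes). The windows were searched on both strands for AGGTCA, the unit from which retinoid response elements are built. Its variants AGTTCA, then GGGTCA, then also GGTTCA, were searched too. Of the 14 windows 5 held at least 1 hexamer, against 38.6% of 32851 windows of the same length in the table. None held hexamers in direct repeat at a spacing of 1 to 5 bases, the arrangement bound by RXR pairs, against 0.524% of all windows. With so rare an arrangement, most sets of 14 windows would hold none, so this says little. The windows do not cover every annotated start. The GENCODE span of RARA begins at 98927818, upstream of all its windows. The windows with 3 or more hexamers, 1.84% of all windows, were 1 of RARA and 1 of RXRA. They are printed with a RARA window that has none, read 5′ to 3′ on the plus strand, with the hexamers of either strand in capitals. All 3 lie within the GENCODE span of their gene and outside every annotated exon.
RARA, chr11:98937446-98937695: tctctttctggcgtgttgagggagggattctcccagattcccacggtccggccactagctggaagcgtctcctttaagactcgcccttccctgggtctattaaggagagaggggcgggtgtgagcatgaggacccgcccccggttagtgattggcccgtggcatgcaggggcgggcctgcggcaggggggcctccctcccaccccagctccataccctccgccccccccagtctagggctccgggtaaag
RARA, chr11:98939461-98939710: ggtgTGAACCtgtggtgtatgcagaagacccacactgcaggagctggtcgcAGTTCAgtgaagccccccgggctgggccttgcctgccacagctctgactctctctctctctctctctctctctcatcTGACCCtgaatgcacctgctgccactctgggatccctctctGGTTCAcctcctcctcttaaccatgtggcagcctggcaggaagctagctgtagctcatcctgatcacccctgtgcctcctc
RXRA, chr2:27709042-27709291: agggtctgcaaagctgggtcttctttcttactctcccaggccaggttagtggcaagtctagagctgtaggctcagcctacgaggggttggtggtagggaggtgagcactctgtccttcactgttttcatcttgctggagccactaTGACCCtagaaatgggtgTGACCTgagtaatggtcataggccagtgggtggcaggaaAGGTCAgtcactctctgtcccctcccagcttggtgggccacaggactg
In the RARA window with hexamers they begin 246, 199, 122 and 81 bases before the start, and in the RXRA window 105, 87 and 48 bases before it. These matches are letters in a window and were not measured as binding.

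RARA (chromosome 11, 98927818 to 98974942, plus strand), the receptor through which most retinoic acid effects in T cells are known to run, was the most abundant retinoid receptor in batches 1 to 3 and was lower in the NOD library of every batch. It stood at 88.6, 98.4, 72.6 and 15.95 CPM in the NOD libraries of batches 1 to 4. In the B16A libraries it stood at 112, 165, 124 and 23.5 CPM. The groups did not overlap within batches 1 to 3, where the highest NOD library lay below the lowest B16A library, and overlapped over all 8 libraries because both batch 4 libraries were low. The log2 ratio, NOD over B16A, was -0.34, -0.75, -0.77 and -0.56 in batches 1 to 4, a mean of -0.60 ± 0.20 (SD, n = 4 batches), or 0.658-fold. Each ratio's 95% interval from counting error (exact binomial, reads without molecular identifiers) lay below 0, from -0.50 to -0.17 in batch 1 and from -0.95 to -0.60 in batch 3. RARA was chosen on this contrast, so the intervals describe the chosen values and are no test of them. Among all tested genes 6.85% were lower in the NOD library of all 4 batches, and 5.44% had NOD libraries wholly below B16A libraries in batches 1 to 3. Its NOD libraries averaged 68.9 ± 36.8 CPM against 106 ± 59.6 for the B16A libraries (SD, n = 4 each), and 86.5 ± 13.0 against 134 ± 27.9 CPM in batches 1 to 3 (n = 3 each). In the edgeR fit over all genes the log2 fold change was -0.62 (standard error 0.67) without the batch term and -0.60 (0.15) with it; leaving out the batch 4 library of NOD or of B16A hosts moved the former to -0.30 or -0.96. The summed CD4 T cell markers were higher in the NOD library of all 4 batches, but of the 8 markers only CD3D, LCK and TRBC2 were so singly, and CD4 was lower in batches 1 and 2. Their part in the RARA values was not tested. In bulk samples, fewer cells that express a gene and less of its RNA per cell cannot be told apart.

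**Figure D1:**
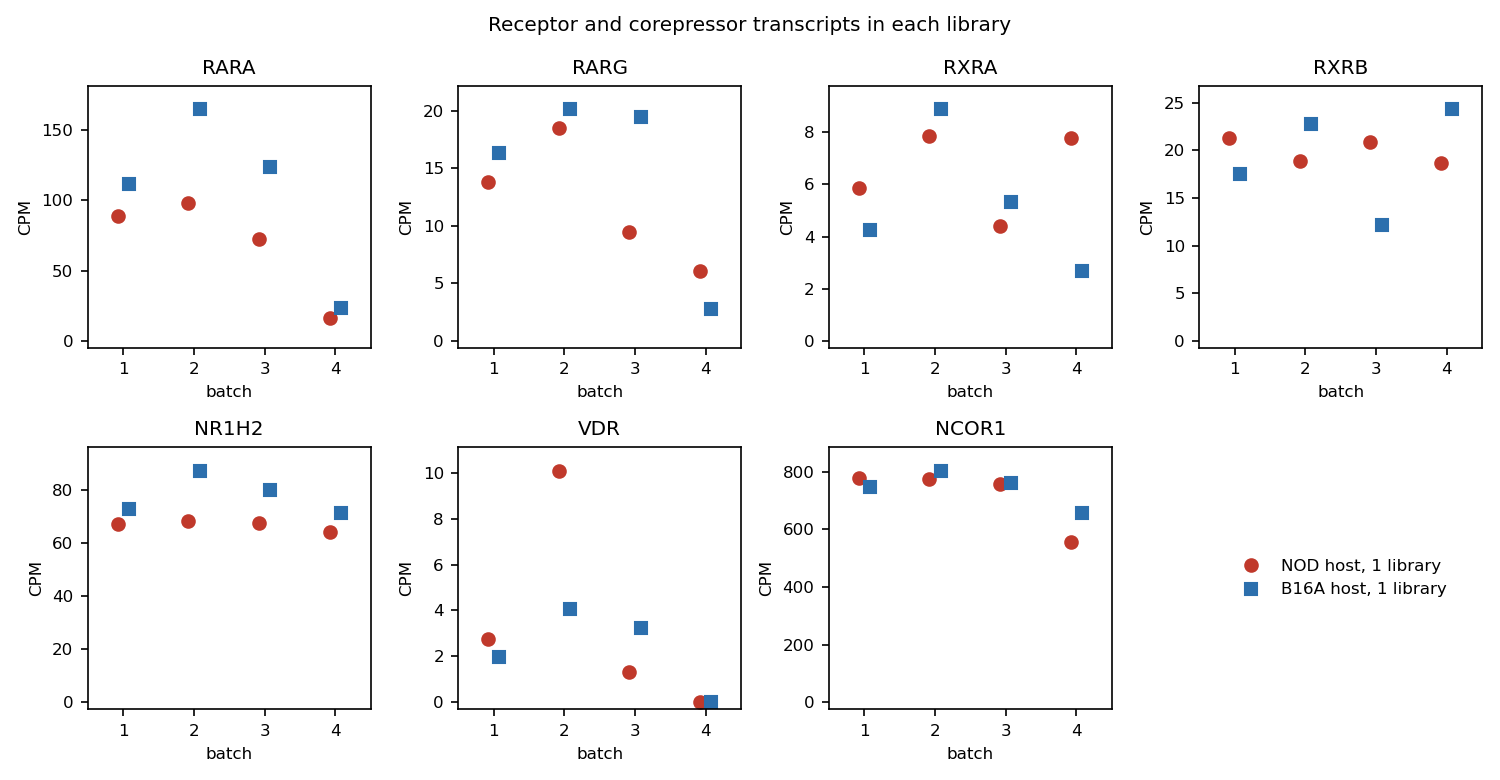
Level of each gene in CPM (vertical axis, linear from 0) in the NOD (red circles) and B16A (blue squares) library of each batch (horizontal axis); each marker is 1 library, so there are no error bars. RARA lies lower in the NOD library of each batch and stands at 15.95 and 23.5 CPM in batch 4, NR1H2 stays between 64.1 and 87.2 CPM, and VDR has 0 counts in both batch 4 libraries.

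RARG (chromosome 15, 102234938 to 102257517, minus strand), the paralog of RARA best known from skin and skeletal tissue, was lower in the NOD library in 3 batches and higher in batch 4. It stood at 13.8, 18.5, 9.48 and 6.09 CPM in the NOD libraries and at 16.3, 20.1, 19.4 and 2.77 CPM in the B16A libraries. The groups overlapped. The log2 ratio was -0.24, -0.12, -1.03 and 1.14 in batches 1 to 4 (mean -0.06 ± 0.90, SD, n = 4), and the counting interval excluded 0 in batches 3 and 4 alone, in opposite directions. The sign of its difference between hosts thus rests on which batch is read.

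RXRA (chromosome 2, 27676440 to 27762957, plus strand) and RXRB (chromosome 17, 34031812 to 34038399, plus strand) code for the shared partners of the whole family, and neither had a constant direction. RXRA lay at 5.85, 7.85, 4.41 and 7.80 CPM with NOD hosts and, in the same order of batches, at 4.26, 8.89, 5.34 and 2.68 CPM with B16A hosts. Only in batch 4 did its counting interval exclude 0, with a log2 ratio of 1.54 (interval 1.12 to 1.98) from 174 and 64 counts. RXRB stood at 21.3, 18.9, 20.9 and 18.7 CPM in the NOD and 17.5, 22.8, 12.1 and 24.3 CPM in the B16A libraries. Its log2 ratio was 0.29, -0.27, 0.79 and -0.38, higher in the NOD library in batches 1 and 3 and lower in batches 2 and 4, and the counting interval excluded 0 in batches 3 and 4, in opposite directions. The means of the 4 ratios, 0.39 ± 0.84 for RXRA and 0.11 ± 0.54 for RXRB (SD), were smaller than the spread between batches.

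NR1H2 (chromosome 7, 44549616 to 44553951, minus strand), the liver X receptor that T cells mainly express and that controls sterol export and T cell growth, was lower in the NOD library of every batch by a small amount. It stood at 67.1, 68.1, 67.5 and 64.1 CPM in the NOD libraries. In the B16A libraries it stood at 72.8, 87.2, 79.9 and 71.2 CPM. All 4 NOD libraries lay below all 4 B16A libraries, batch 4 included, as for 57 (0.39%) of the 14607 tested genes. The log2 ratio was -0.12, -0.36, -0.24 and -0.15 (mean -0.22 ± 0.11, SD, n = 4), or 0.860-fold. The counting interval included 0 in batch 1 (-0.31 to 0.08) and lay below 0 in batches 2 to 4. The NOD libraries were closer together than the B16A libraries, with 66.7 ± 1.78 against 77.8 ± 7.37 CPM (SD, n = 4 each).

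VDR (chromosome 15, 97854425 to 97910630, minus strand), which activated T cells are known to induce, was the scarcest of the 7 genes, with 137 counts over all libraries. It had 16, 54, 8 and 0 counts in the NOD libraries and 13, 26, 20 and 0 in the B16A libraries, or 2.75, 10.1, 1.31 and 0 CPM against 1.98, 4.06, 3.24 and 0 CPM. A count of 0 allows up to 0.134 and 0.126 CPM in the batch 4 libraries (3 counts). The log2 ratio was 0.48, 1.32 and -1.31 in batches 1 to 3, with no ratio in batch 4, so no direction was shared; the counting interval excluded 0 in batches 2 and 3, on opposite sides. The NOD library of batch 2, which held the most VDR, also held the highest sums of B cell markers (20.9 CPM) and of macrophage and dendritic cell markers (58.7 CPM), and both sums were lowest in the batch 4 libraries, at 2.02 and 1.72 CPM for B cells and 4.48 and 4.53 CPM for macrophages and dendritic cells in NOD and B16A hosts. The part of these in the VDR values was not tested.

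NCOR1 (chromosome 11, 62316426 to 62458541, minus strand), the corepressor that unliganded RAR pairs hold, was the most abundant of the 7 and hardly differed between hosts in batches 1 to 3. It stood at 778, 775, 758 and 555 CPM in the NOD libraries and at 747, 804, 760 and 655 CPM in the B16A libraries. The groups overlapped. The log2 ratio was 0.06, -0.05, -0.00 and -0.24, and with 12380 and 15638 counts in batch 4 the counting interval there (-0.27 to -0.21) lay below 0. Its mean ratio was -0.06 ± 0.13 (SD, n = 4). Exons of NCOR1 share 82 bases (0.640% of its exon length) with the opposite-strand gene Pigl and 1 base with Ttc19; none of the other 6 shares exon sequence with another annotated gene.

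**Figure D2:**
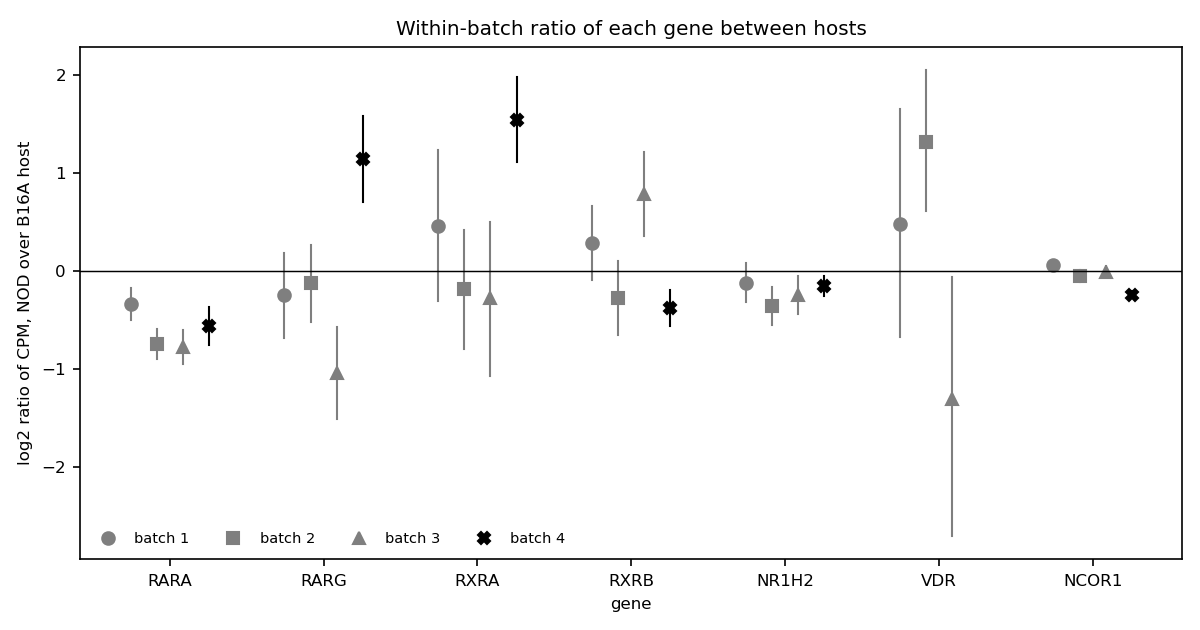
Within-batch log2 ratio (vertical axis; CPM with the NOD host over CPM with the B16A host) of each gene in batches 1 to 3 (grey circle, square and triangle) and batch 4 (black cross); lines are 95% exact binomial intervals, which cover counting error of that pair of libraries only, and VDR has no ratio in batch 4. RARA and NR1H2 are below 0 in all 4 batches, and RARG, RXRA, RXRB, VDR and NCOR1 lie on both sides.

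Expressed per kb of exon, which scales for the length of different genes, the corepressor stood highest and the receptors spread over a wide range. The length used is that of all annotated exons of a gene together. The transcripts in use and evenness of coverage after amplification were not examined, so the order of genes is approximate. The mean level over the 8 libraries was 56.9 ± 6.46 CPM per kb for NCOR1, 21.5 ± 2.30 for NR1H2, 20.05 ± 11.5 for RARA, 4.93 ± 0.945 for RXRB, 3.12 ± 1.53 for RARG, 1.08 ± 0.391 for RXRA and 0.518 ± 0.573 for VDR (SD, n = 8). NCOR1 exceeded NR1H2 and RARG exceeded RXRA in 8 of 8 libraries. RXRB exceeded RARG, and RXRA exceeded VDR, in 7 of 8. NR1H2 and RARA did not differ beyond their spread, NR1H2 being higher in 3 of 8 libraries, the NOD library of batch 3 and those of batch 4. Among RAR genes RARA exceeded RARG 5.19 to 8.01 times in batches 1 to 3, and 2.56 and 8.30 times in the NOD and B16A libraries of batch 4. Of the RXR genes RXRB exceeded RXRA 3.12 to 12.5 times. RXRG, the third RXR gene, had 40 counts in all and did not pass the filter, while RARB, the third RAR gene, passed it at 5.38 to 15.0 CPM.

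Ratios between these genes inside a library do not depend on library scaling. The level of RARA per kb relative to NR1H2 was 1.01, 1.11, 0.826 and 0.191 in the NOD and 1.18, 1.45, 1.19 and 0.254 in the B16A libraries, lower in the NOD library of all 4 batches. NCOR1 relative to RARA was 2.99, 2.69, 3.56 and 11.8 in the NOD and 2.27, 1.66, 2.09 and 9.50 in the B16A libraries, higher in the NOD library of all 4 batches. The corepressor thus stood higher over the receptor in each NOD library than in its B16A partner. RARA relative to RARG was lower in the NOD library of 3 batches. In batch 3 it was higher, at 7.47 in the NOD and 6.24 in the B16A library. All these ratios reuse the RARA values that were selected on this contrast and restate the lower RARA.

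**Figure D3:**
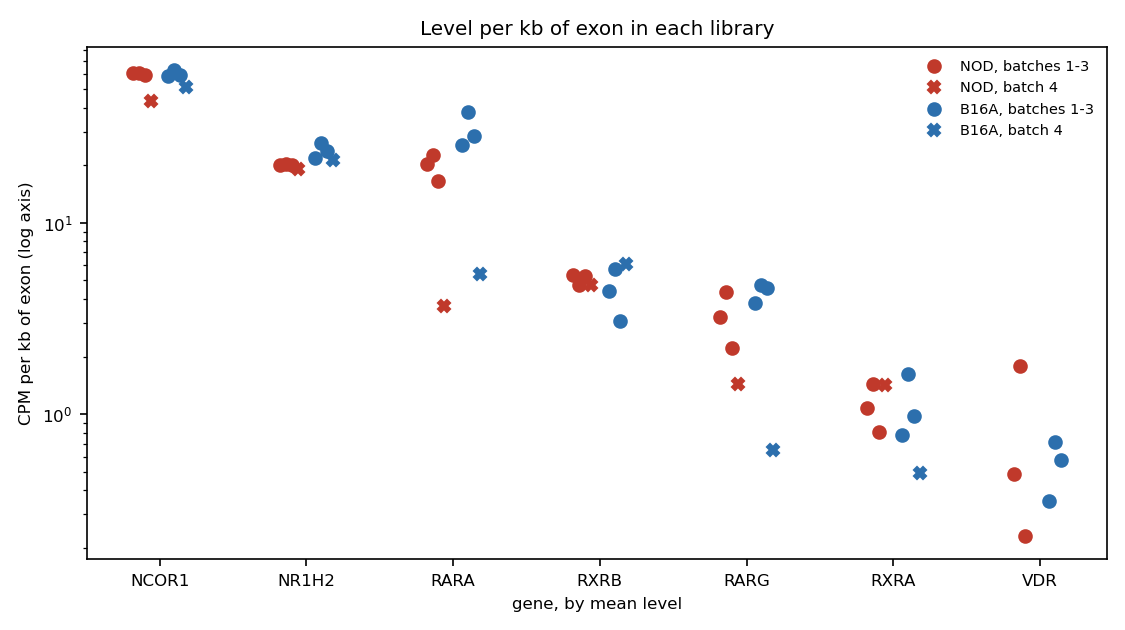
CPM per kb of exon (vertical log axis) of the 7 genes, ordered by their mean over the 8 libraries, with 1 marker for each library (red NOD, blue B16A, crosses batch 4); the 2 VDR values of 0 cannot be drawn. RARA spans 3.65 to 37.8 CPM per kb, while NR1H2 spans 19.1 to 26.0.

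Differences among batches are a contrast on which the genes were not chosen, and could be tested. RARA, RARG and VDR differed among batches and RXRA, RXRB, NR1H2 and NCOR1 did not pass. The test was edgeR's quasi-likelihood F-test of the batch terms with the host as a covariate, adjusted over all 14607 tested genes, of which 9137 (62.6%) passed. The 3 of 7 members called lie below that share. The adjusted p was 6.31e-07 for RARA, 0.00662 for RARG and 0.000577 for VDR, and 0.243, 0.533, 0.718 and 0.831 for NCOR1, RXRA, RXRB and NR1H2 (edgeR). RARA in batch 4 stood 5.42 times below the mean of batches 1 to 3 in NOD hosts and 5.69 times below it in B16A hosts. RARG stood 2.28 and 6.73 times below, and NR1H2 1.05 and 1.12 times below. VDR could pass the filter on low counts only through batches 1 to 3, so it had to differ and its call is no support. With batch 4 left out none of the 7 passed among batches 1 to 3 (lowest edgeR adjusted p = 0.269, VDR), where 438 of 15716 genes (2.79%) did. With upper-quartile scaling NCOR1 and NR1H2 passed too, and NCOR1 also passed with DESeq2 size factors and in the DESeq2 likelihood ratio test. The batch 4 libraries also differ in depth, in the number of detected genes and in the marker sums given above, whose part in the RARA and RARG values was not tested.

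Genes whose log2 CPM followed RARA most closely over the 8 libraries were RPRD1A (Pearson r = 0.997), AFF1 (0.997), SMARCC2 (0.997), RAI1 (0.996) and ELMSAN1 (0.996), of 9722 genes with a mean of at least 4 CPM. Within the 6 libraries of batches 1 to 3 their r was 0.971, 0.974, 0.972, 0.954 and 0.965. As many as 673 of those genes exceeded an r of 0.95 with RARA over the 8 libraries, which share the step to batch 4. These genes were picked for their likeness over the same libraries, so their r within batches 1 to 3 is no independent check. The closest genes were SPSB3 for RARG (0.998), DENND4A for RXRA (0.937), GTPBP3 for RXRB (0.934), FBXO34 for NR1H2 (0.965), SLC6A17 for VDR (0.996) and VPS9D1 for NCOR1 (0.993). For RXRA and RXRB no gene exceeded 0.95 and for NR1H2 only 2 did, against 143 for RARG, 410 for VDR and 354 for NCOR1.

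Of 69 other genes of these pathways, listed by role, 44 passed the filter on low counts and none passed the test between hosts. The edgeR test called 0 of 44 without the batch term and 0 with it, as it called 0 of all 14607 genes (0%) in both fits. At an unadjusted p under 0.05 (edgeR) there were 0 of 44 without the batch term, beside 34 of all 14607 genes. With the batch term there were 8 of 44, a larger share than the 857 of all 14607 genes. The lists were chosen with earlier results of these data known, so this share is a description and no test. DESeq2 and limma voom, with or without the batch term, also called 0 of the 44. Of the 44, 21 had a positive and 23 a negative log2 fold change, with a median of -0.01 beside 0.03 over all tested genes.

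Retinoic acid targets included CCR9, the gut homing chemokine receptor, which was higher in the NOD library of every batch, as were 7.43% of all tested genes. CCR9 stood at 71.4, 72.7, 71.6 and 52.2 CPM in the NOD and 57.9, 48.8, 40.6 and 27.6 CPM in the B16A libraries. The groups overlapped through the batch 4 NOD library. Its log2 fold change was 0.62 (standard error 0.29; edgeR adjusted p = 0.9999), and 0.66 (standard error 0.16) with the batch term. The integrin chains of gut homing went opposite ways without passing. ITGA4 had a log2 fold change of 0.21 (standard error 0.28) and ITGB7 one of -0.16 (standard error 0.43). Fitted with the batch term they had 0.20 (0.13) and -0.18 (0.12). The ITGB7 level was lower in the NOD library of all 4 batches and ITGA4 higher in all 4. CD38, TGM2 and HIC1 did not pass the filter. So 0 of 3 tested targets passed.

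The RXR partner receptors and the coregulators did not pass either. Of 8 tested receptors 6 had a positive fold change (median 0.19), and 5 with the batch term (median 0.05), among them NR1H3, the alpha liver X receptor (0.65, standard error 0.68), and NR4A2, an early activation receptor (0.95, standard error 1.17). THRB, a thyroid hormone receptor, had -0.61 (0.47). The fit with the batch term gave NR1H3 0.60 (0.58), NR4A2 0.96 (0.40) and THRB -0.56 (0.45). NR4A2 was scarce in batches 1 to 3, at 1.13 to 7.85 CPM, with log2 ratios of -0.06, 2.48, 0.53 and 0.93 in batches 1 to 4. Its more abundant paralog NR4A1 had 0.30 (0.98), and -0.19 (0.25) with the batch term. Of 8 corepressor partners 6 had a negative fold change (median -0.07), and 7 with the batch term (median -0.04). SIN3A and HDAC2, parts of a deacetylase complex, had -0.20 and -0.20 (standard errors 0.28 and 0.27). Fitted with the batch term they had -0.21 (0.13) and -0.19 (0.16). Of 9 coactivators and ligand-dependent coregulators 6 were negative (median -0.08), and 7 with the batch term (median -0.10). Of all 14607 tested genes 6698 were negative without the batch term and 7109 with it. MED1, a Mediator subunit that nuclear receptors contact, had -0.38 (standard error 0.28) and NCOA2 -0.28 (0.38). NRIP1, which ligand-bound receptors recruit to repress, had 0.22 (0.26). Fitted with the batch term, MED1 had -0.37 (0.13), NCOA2 -0.32 (0.13) and NRIP1 0.19 (0.17), and none passed.

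Genes that make, carry or break down retinoic acid were scarce. Of 18 listed, 6 passed the filter, none was at 0 in all libraries, and the enzymes that make retinoic acid, ALDH1A1, ALDH1A2 and ALDH1A3, had 36, 63 and 66 counts over the 8 libraries and 0 in both batch 4 libraries. The tested members were 4 positive and 2 negative with a median of 0.61 (0.39 with the batch term), and their standard errors were up to 1.74. The 4 positive genes, STRA6, FABP5, DHRS3 and CYP26B1, had log2 ratios of 2.52, 1.41, 1.85 and 3.53 in batch 2. In batch 3 these were -1.39, -0.64, -0.64 and -1.72, so the direction turned between batches. FABP5, a carrier that delivers retinoic acid to other receptors, had 1.01 (standard error 0.90). RDH10 and RDH11, retinol dehydrogenases, had -0.27 (0.35) and -0.20 (0.30). Fitted with the batch term, FABP5 had 0.62 (0.61), RDH10 -0.25 (0.32) and RDH11 -0.23 (0.23).

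Liver X receptor targets were 4 positive and 5 negative of 9 tested, with a median of -0.00. MYLIP, the ligase that degrades the LDL receptor, had a log2 fold change of -0.34 (standard error 0.22). SREBF1, the regulator of fatty acid synthesis, had -0.43 (0.37), and SMPDL3A, a phosphodiesterase, 0.26 (0.44). The fit with the batch term gave -0.34 (0.15) for MYLIP, -0.38 (0.17) for SREBF1 and 0.17 (0.25) for SMPDL3A, and none passed. SREBF1 stood at 47.5, 47.9, 36.4 and 25.3 CPM in the NOD and 55.9, 73.3, 55.5 and 26.8 CPM in the B16A libraries. SREBF1 and SCD1 were lower in the NOD library of each batch, as were 6.85% of all tested genes. MYLIP and LPCAT3 were lower in 3 batches, and SCD2 and APOE were higher in 3. ABCA1, ABCG1 and SMPDL3A were lower in 2 batches and higher in 2. ABCG1, the sterol exporter, reached 1452 and 967 CPM in the batch 4 libraries, against 67.3 to 98.8 CPM in the other 6. Of the 5 vitamin D genes only TRPV6, a calcium channel, passed the filter. Its log2 fold change was -0.29 (standard error 1.13), and 0.27 (0.51) with the batch term, so its sign depends on that term. CYP24A1, the enzyme most strongly induced by the vitamin D receptor, had 40 counts in all.

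**Figure D4:**
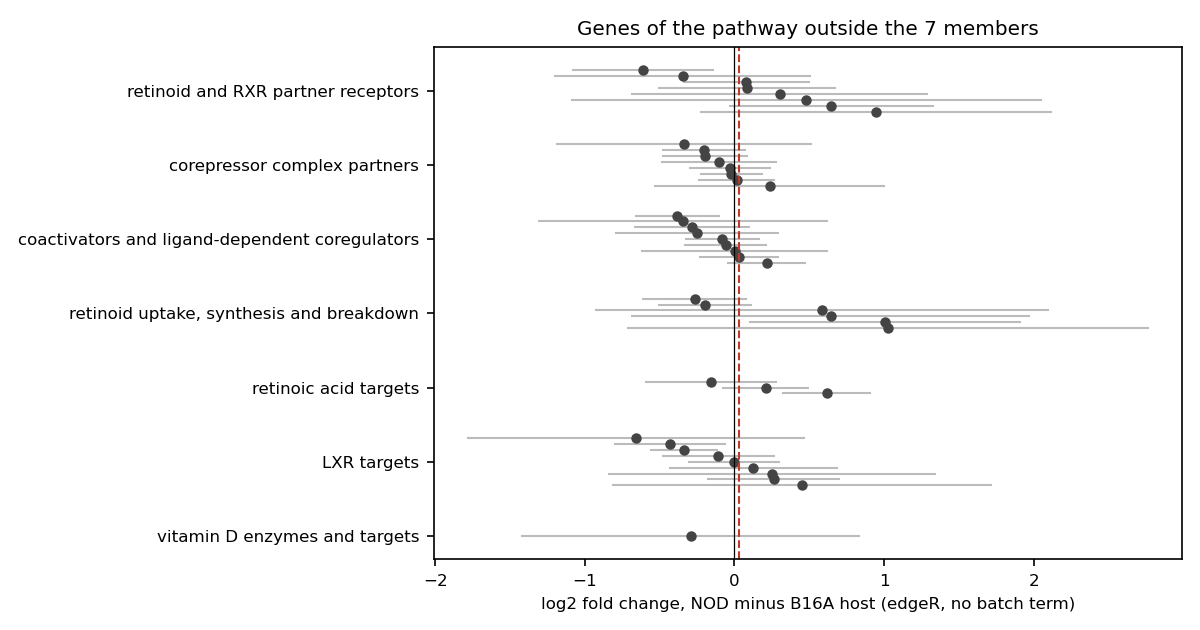
Log2 fold change, NOD minus B16A host (horizontal axis, edgeR without batch term), of the 44 tested pathway genes outside the 7 members, by list (points, 1 gene each; grey lines, 1 standard error each way; dashed red line, median of all tested genes, 0.03). No gene passed, and each list but that of vitamin D, with 1 gene, has points on both sides of 0.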

How the data were processed

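RNA from sorted 8F10 T cells of 8 samples was amplified (SeqPlex) and read from one end over 50 bases, per the labels' protocols. The authors deposited raw read counts per gene, not normalized, in 1 table; per the submitters' processing notes, STAR, HTSeq and DESeq2 were used with mm10. Versions, annotation and strand setting were not given in the sources used here. Counts were tested with edgeR 4.0.16 (R 4.3.3; filterByExpr on host, TMM, robust quasi-likelihood fit) over 14607 genes, 32018 being removed by the filter, with Benjamini-Hochberg adjustment and a threshold of 0.05. The main host fit had no batch term; DESeq2 1.42.0, limma 3.58.1 and fits with the batch term, other scalings, other filters and left-out libraries were alternatives. The fits were tested on simulated data with known 4-fold changes. Those with the batch term and among batches recovered most of them, and the host fit without the batch term none, so a count of 0 from the latter says little. Recovery of smaller changes, such as those described here between hosts, was not simulated. Batch numbers come from the labels and pair the libraries. Deviations from the group means correlated across genes within batches 1 to 4 at r = 0.625, 0.702, 0.611 and 0.906. The group means include batch 4, so the libraries of batches 1 to 3 share a shift away from it under any pairing. These r are therefore no check of the pairing within batches 1 to 3. CPM are counts over TMM-adjusted library sizes; log2 CPM, used for the likeness of patterns, has a prior count of 2. Ratios between hosts use no prior count. Exon lengths and positions are from GENCODE vM21 (GRCm38) and promoters from RefSeq (GRCm38.p6). Standard errors derive from the F statistic. Intervals and the floor of 3 counts cover counting error only, since amplified reads without molecular identifiers are not independent molecules.

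The members, the 7 pathway lists and the 5 marker lists were chosen with earlier results of these data known. Named were all 7 members, up to 3 genes of each list by the smallest unadjusted p, the 5 genes most like RARA and 1 for each other member, leaving out unnamed gene models. RARB, RXRG, NR4A1, ABCG1, CYP24A1, the ALDH1A genes and the untested retinoic acid targets were named after their values were seen. So were the other tested liver X receptor targets, STRA6, DHRS3, CYP26B1 and the stromal collagen genes. The result of 1 gene that this rule names is not reported here.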

Additional observations from a re-analysis of the deposited data

Results flagged for a closer look

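A library that stood far from the other 3 of its host was sought in 24 sets of 4 values, those of the 7 genes and of the 5 marker sums in each host; chance marks about 1 in 20 such sets. It was found for NCOR1 in NOD hosts, where the batch 4 library stood at 555 CPM and the others at 758 to 778 CPM, a gap of 0.911 of the whole range. It was also found in B16A hosts for the summed macrophage and dendritic cell markers (4.53 CPM in batch 4 against 33.0 to 38.5, a gap of 0.839) and for the summed stromal and endothelial markers (270.1 against 389 to 411 CPM, a gap of 0.842). All 3 were batch 4 libraries.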

How the results depend on the processing

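No gene was called between hosts in the main fit. DESeq2 with the replicate block called 23 higher and 4 lower, limma voom with the replicate block 6 and 1, and edgeR with the replicate block and batch 4 left out 25 and 7. Of the 7 members, the first of these fits called 1, RARA, on which the members were selected. The limma voom and edgeR fits named here called 0 of the 7, so RARA was not among their calls. The edgeR fit with the replicate block alone called 0, as did the other alternatives, and the pathway genes outside the members had 0 calls in all 22. The number of genes that differ among batches, 9137, was 15434 with all low-count genes kept and 438 with batch 4 left out. The number of members that differ among batches, 3, was 5 with upper-quartile factors and 0 with batch 4 left out; DESeq2 size factors and the DESeq2 likelihood ratio test gave 4, with NCOR1 added. The log2 difference of RARA ran from -0.96 (without B16A replicate 4) to -0.30 (without NOD replicate 4) and that of NR1H2 from -0.26 to -0.17 over the 22 alternatives, with no change of sign. RARA was selected on this contrast, and both genes were lower in the NOD library of every batch. Their kept sign is therefore no independent support. The sign changed in 1 alternative for RARG, 2 for RXRA, 2 for RXRB, 3 for VDR and 4 for NCOR1. Depth limits VDR (137 counts) and RXRA (459 counts) most.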
